A study of Mus musculus with 16 samples.

Results

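The genes described here encode enzymes that make, lengthen and desaturate fatty acids, and a pair of proteins that bind them. There are 10 of them among the 32285 genes counted: Acaca, Fasn, Elovl5, Elovl6, Scd1, Scd2, Fads1, Fads2, Fabp5 and Fabp7. They were taken by gene symbol with no threshold on a measured value, but the list was drawn up with earlier results of these data known, so it is not independent of them. Each was read in nuclei of the hippocampus from 16 libraries of female mice aged 9 months, 4 libraries in each of 4 groups.

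Each mouse was either Ch25h+/+ or Ch25h-/-, and either with tau (Tau+) or without it (Tau-), which gives 4 groups named by both genotypes. Ch25h encodes cholesterol 25-hydroxylase, which makes an oxysterol that holds back the processing of SREBP factors. The labels name neither the tau line nor its promoter, and they do not describe the Ch25h allele. All mice were female and of the same age, so sex and age do not separate the groups. The title of the series places CH25H in a lipid axis between innate immune activation and tau pathology. The comparisons therefore ask where fatty acid genes are read, and whether they differed with tau, between the Ch25h labels, or with both. Whether each library is 1 mouse is not stated, so the p-values measure the spread between these libraries.

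Fatty acid synthesis starts in the cytosol, where acetyl-CoA carboxylase (Acaca) makes malonyl-CoA and fatty acid synthase (Fasn) builds palmitate from it. Elovl6 lengthens palmitate to stearate, and stearoyl-CoA desaturases (Scd1, Scd2) put a double bond into both, which gives the monounsaturated fatty acids of membranes and myelin. The desaturase Fads2, the elongase Elovl5 and the desaturase Fads1 act in this order on dietary polyunsaturated fatty acids on the way to arachidonic and docosahexaenoic acid. Fabp5 and Fabp7 carry long-chain fatty acids within the cell, and Fabp7 is a known marker of radial glia, astrocytes and oligodendrocyte precursors. SREBP factors, with NF-Y and Sp1 as partners, and liver X receptors are known to drive many of these genes.

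Start-site sequences of some members were searched for the letters these factors bind. RefSeq windows (GRCm38.p6) matched 6 of the 10 members, and the 250 bases before the RefSeq start were searched on both strands. The motifs were CCAAT (bound by NF-Y), GGGCGG (Sp1), CACGTG (an E-box) and 2 forms of the sterol response element, TCACCCCAC and the wider TCACNCCAC that contains it. Of 32851 windows of the same length, 33.85% held CCAAT, 32.7% GGGCGG, 6.02% CACGTG, 0.496% TCACCCCAC and 1.05% TCACNCCAC. Measured against the GENCODE gene models, the Acaca window lay wholly inside the gene, that of Fads2 by 243 of its 250 bases, that of Fabp7 by 42 and that of Elovl6 by 31, so these are not shown. The windows of Fasn and Elovl5, of which 0 and 1 base lie inside the gene, are shown 5′ to 3′ on the gene's strand with matches in capitals, since they contrast a gene of synthesis with an elongase.
Fasn, chr11:120824548-120824797, minus strand: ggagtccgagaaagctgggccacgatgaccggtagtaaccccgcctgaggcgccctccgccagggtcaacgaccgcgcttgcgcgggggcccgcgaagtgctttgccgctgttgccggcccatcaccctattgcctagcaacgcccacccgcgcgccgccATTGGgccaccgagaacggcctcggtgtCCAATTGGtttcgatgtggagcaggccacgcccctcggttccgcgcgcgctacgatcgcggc
Elovl5, chr9:77917115-77917364, plus strand: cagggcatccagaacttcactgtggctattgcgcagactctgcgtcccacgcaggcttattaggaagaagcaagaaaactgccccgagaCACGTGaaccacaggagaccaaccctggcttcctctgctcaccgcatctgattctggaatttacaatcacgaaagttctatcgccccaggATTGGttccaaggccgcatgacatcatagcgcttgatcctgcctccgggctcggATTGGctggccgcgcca
The Fasn window held 3 CCAAT matches, of which 2 overlap on opposite strands as CCAATTGG. Elovl5 held 2 CCAAT matches and 1 CACGTG. Of the windows not shown, that of Fabp7 held 2 CCAAT matches and that of Fads2 1 GGGCGG, while those of Elovl6 and Acaca held no match. Neither window shown held a form of the sterol response element, which says only that these letters are absent from these 250 bases.

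The members lie on 5 chromosomes of GRCm38 (GENCODE M21 annotation). Fads2 (19, 10062765 to 10101746, minus strand) and Fads1 (19, 10182888 to 10196877, plus strand) lie close together, as do Scd2 and Scd1 further along. Fabp5 (3, 10012548 to 10016607) and Elovl6 (3, 129532355 to 129638495) lie on the plus strand. Fasn (11, 120805846 to 120824547) lies on the minus strand, and Elovl5 (9, 77917364 to 77984519) and Fabp7 (10, 57784881 to 57788450) on the plus strand.

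The 16 libraries held 51270831 to 84870650 unique molecular identifiers (UMIs, each 1 captured RNA molecule). After filtering, 7601 to 10567 nuclei were kept per library, 136828 in all, with a median of 3643 to 6253 UMIs per nucleus. Nuclei were clustered with the members and pathway genes left out, and 124972 of them were given a class by marker genes. Tests were made in the 8 classes that no library held fewer than 20 nuclei of. They were the glial astrocytes, microglia, oligodendrocytes and oligodendrocyte precursors, and the neuronal DG granule (dentate gyrus), CA pyramidal, inhibitory and other excitatory classes. Any pair of libraries shared 10 to 40 barcodes. The targeted gene did not check the Ch25h labels: Ch25h had 8 to 36 UMIs in the Ch25h+/+ libraries and 10 to 30 in those labelled Ch25h-/-. Within Tau- the libraries labelled Ch25h-/- held more of it, 10 to 25 UMIs against 8 to 12 in Ch25h+/+. Within Tau+ they held 12 to 30 against 16 to 36. Within every group replicates 1 and 2 lay apart from replicates 3 and 4 on the first principal component, in all 16 libraries for 7 classes and in 15 of 16 for microglia. The labels give no reason for this split of the libraries, and it was balanced over the groups. Each group's mean had been removed before the component was computed, so libraries of every group had to fall on both sides.

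The members differed in how far they were read in glia. A level here is in CPM: the UMIs of a gene divided by all UMIs of that class in a library and scaled to 1000000, averaged over 16 libraries with its standard deviation (SD). Astrocytes held 4.37% of the UMIs of all nuclei kept but 49.05% of those of Fabp7 and 47.25% of those of Fads2. Oligodendrocytes held 4.745% of all UMIs but 38.2% of those of Scd2 and 34.8% of those of Scd1. The 4 neuronal classes together held 74.31% of all UMIs. They held 71.2% of the UMIs of Elovl6, 64.4% of Fads1, 64.01% of Acaca, 61.1% of Elovl5, 56.9% of Fabp5 and 56.1% of Fasn, and between 19.4% and 34.7% of those of Fabp7, Scd1, Fads2 and Scd2. Classes were set by clustering, so levels between them are described and not tested, and levels are compared only within a gene. A part of the counts in any class is free RNA that entered the droplet, and its share of a gene's level is given as an upper estimate where it is large.

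Acaca was read in every class. Its level was 421 ± 43.1 CPM in oligodendrocytes, 252 ± 18.7 in astrocytes and 195 ± 10.5 in oligodendrocyte precursors (SD, n = 16). Next came inhibitory neurons with 163 ± 9.95 CPM, and the excitatory classes lay between 116 and 153. Oligodendrocytes were above astrocytes, and astrocytes above precursors, in 16 of 16 libraries with no overlap. Microglia had the lowest mean level and by far the widest spread, 91.1 ± 70.2 CPM. Fasn was low throughout, with 23.0 ± 6.25 CPM in astrocytes, 15.6 ± 5.60 in precursors and 14.4 ± 3.74 in oligodendrocytes. The last 2 did not separate, since precursors were higher in 8 of 16 libraries. Neuronal classes lay at 4.44 to 5.41 CPM of Fasn, and microglia at 2.79 ± 2.12.

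The elongases differed in where they were read. Elovl6 was highest in oligodendrocyte precursors, with 162 ± 15.97 CPM against 111 ± 17.3 in oligodendrocytes, and higher there in 16 of 16 libraries. Choroid plexus epithelial cells, found in 14 libraries and not tested, read 278 CPM of Elovl6 with their counts pooled. Microglia read 9.10 ± 4.73 CPM, below every library of the next class, DG granule neurons (50.7 ± 6.77). Elovl5 was highest in oligodendrocytes (79.9 ± 12.1 CPM) and astrocytes (72.4 ± 10.7), which overlapped although the first was higher in 13 of 16 libraries. All other tested classes lay between 18.4 and 28.6 CPM of Elovl5.

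The desaturases split into a pair of oligodendrocyte genes and a pair of astrocyte genes. Scd2 read 947 ± 232 CPM in oligodendrocytes, 403 ± 102 in astrocytes and 162 ± 34.9 in precursors, with no overlap between the first and the second or the second and the third. Among classes not tested, ependymal cells read 277 CPM of Scd2. The other tested classes lay at 39.8 to 67.8 CPM of Scd2, of which free RNA can make up 28.6% (CA pyramidal neurons) to 77.4% (DG granule neurons). Scd1 followed the same order at a low level, 17.7 ± 7.996 CPM in oligodendrocytes and 10.7 ± 4.41 in astrocytes. It stayed at 2.25 CPM or less elsewhere among the tested classes. The Scd1 ranges of oligodendrocytes (7.69 to 36.4 CPM) and astrocytes (2.34 to 21.5 CPM) overlapped. Fads2 read 235 ± 29.4 CPM in astrocytes and 60.3 ± 12.1 in precursors, with no overlap. Among classes not tested, ependymal cells read 125 ± 40.2 CPM of Fads2 in Tau+ and 108 ± 50.6 in Tau- (SD, n = 8). Choroid plexus epithelial cells read 68.5 ± 29.9 and 78.9 ± 54.6 CPM, with libraries that lacked them counted as 0. In oligodendrocytes Fads2 read 4.05 ± 1.67 CPM, which free RNA can account for in full. Fads1 read 95.04 ± 15.2 CPM in astrocytes, above every library of oligodendrocyte precursors (34.1 ± 5.70) but not of microglia, where 1 library reached 66.3 against 62.1 in the lowest astrocyte library. It read 17.2 ± 4.53 CPM in oligodendrocytes, the lowest of the tested classes.

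The binding proteins also differed. Fabp7 read 32.2 ± 9.46 CPM in precursors and 28.6 ± 10.5 in astrocytes, which overlapped, and 3.20 CPM or less in the other 6 classes. Fabp5 was spread more widely, with 42.3 ± 16.2 CPM in astrocytes, 24.1 ± 12.6 in oligodendrocytes and 13.6 ± 2.01 in inhibitory neurons. Astrocytes were above oligodendrocytes in 16 of 16 libraries, although the ranges overlapped. Free RNA can make up 44.1% of the Fabp5 level in oligodendrocytes, 92.8% of it in DG granule neurons and all of it in precursors.

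**Figure D1:**
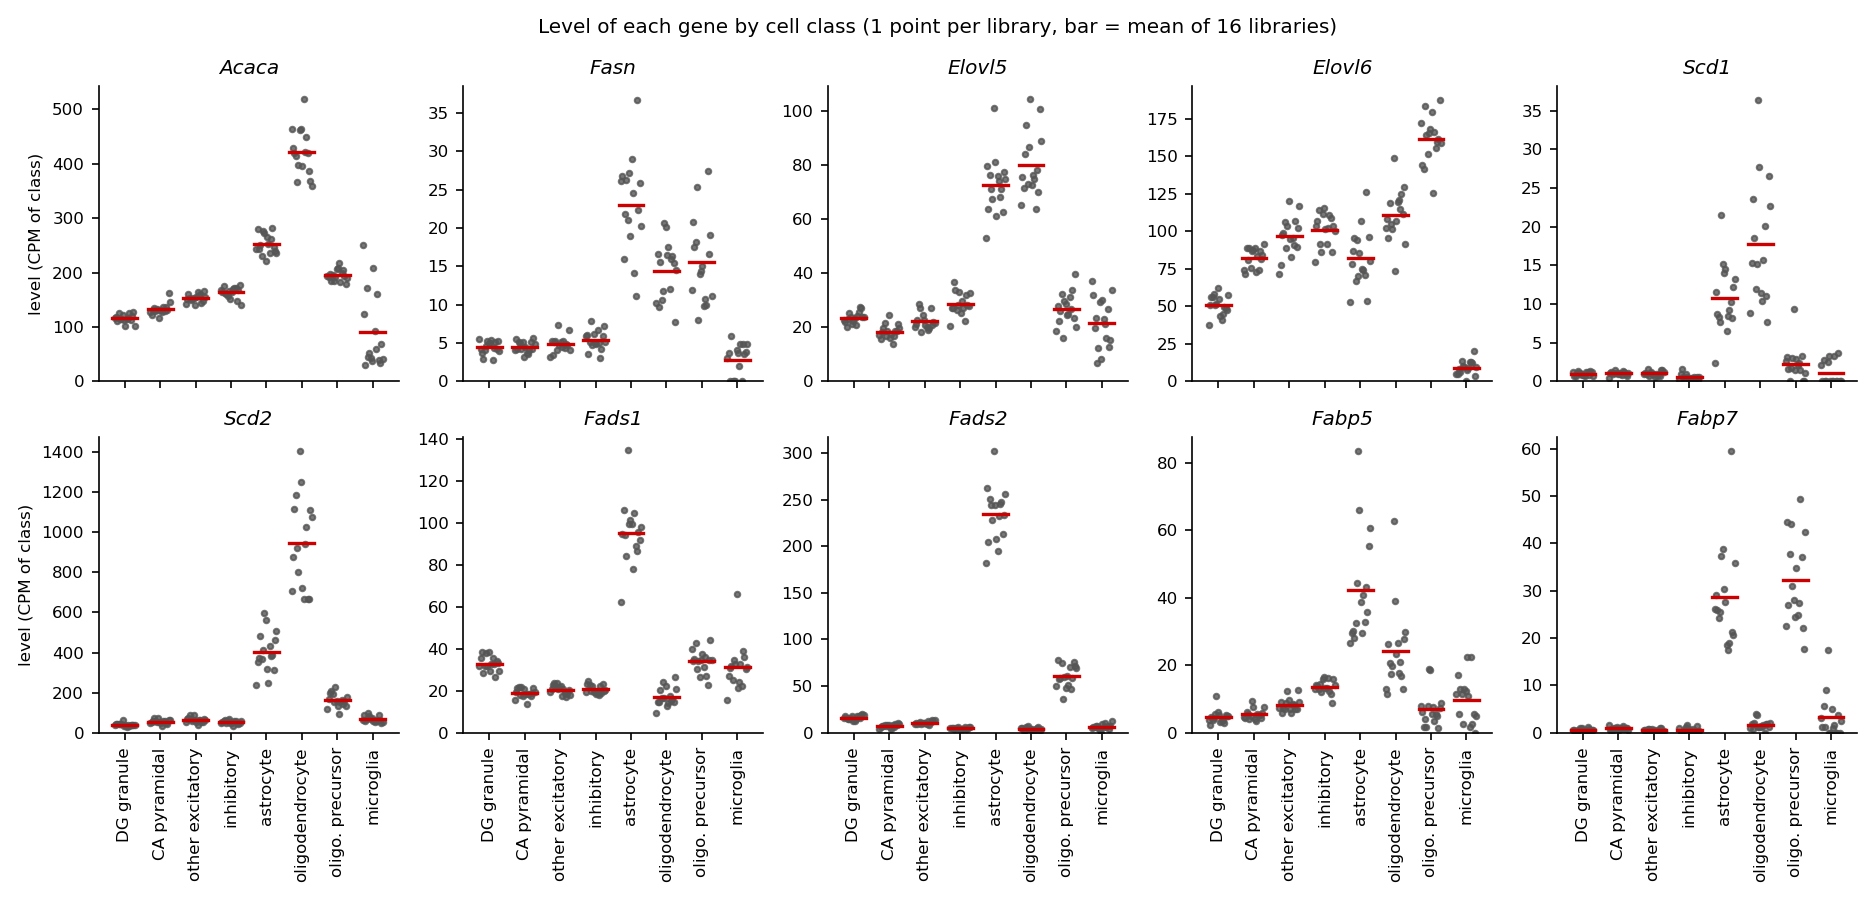
Level of each gene (CPM of the class, linear axes that differ between panels) in the 8 tested classes. Points are the 16 libraries and red bars their means. Scd2 and Acaca were highest in oligodendrocytes, Fads1 and Fads2 in astrocytes, Elovl6 and Fabp7 in oligodendrocyte precursors, and Acaca in microglia spread from 30.7 to 250 CPM.

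Shares of nuclei with a UMI gave the same picture at equal depth. With nuclei thinned to 1000 UMIs, 56.6% of oligodendrocytes and 31.5% of astrocytes held a UMI of Scd2, against 5.57% of CA pyramidal neurons (69.7%, 57.2% and 39.8% before thinning, at median depths of 1557, 2376 and 9633 UMIs). Fads2 was found in 20.4% of thinned astrocytes and 0.395% of thinned oligodendrocytes, a class at its free RNA level (41.7% and 0.651% before thinning).

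Within oligodendrocytes, 2 clusters were named, of 17419 and 5455 nuclei. Acaca read 363 ± 33.8 CPM in the larger and 567 ± 71.2 in the smaller, and Elovl5 read 70.4 ± 13.5 and 104 ± 15.9. Fads1 was the other way round, with 19.8 ± 5.76 CPM in the larger and 10.96 ± 4.997 in the smaller. Scd2 was alike in both, with 936 ± 216 and 970 ± 287 CPM.

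For each member, the genes whose level was most like it were sought over 128 profiles (8 classes in 16 libraries) among 13696 genes. The measure was Pearson's correlation of log2(CPM + 1), given without a p because profiles share libraries and classes. Scd2 was most like Csrp1 (r = 0.964), Olfml1 (0.95) and Usp54 (0.947). Scd1 was most like Olfml1 (0.885), Scd2 itself (0.884) and Efhd1 (0.872). Fads2 was most like D130040H23Rik (0.929), Nhsl1 (0.929) and Rfx4 (0.928), and Fabp7 like Kank1 (0.932), Ednrb (0.926) and Rgcc (0.924). Elovl6 was most like Lrrc4b (0.912), Ctnna2 (0.91) and Mdga2 (0.908), and Fads1 like Tspan7 (0.908), Hdac8 (0.904) and Gm14858 (0.898). Elovl5 was most like Fgfr2 (0.901), Shroom3 (0.885) and Pdk4 (0.882). Genes like Acaca included Kif1b (0.864) and Arhgef10 (0.859). Fasn was most like Plxnb1 (0.852), Pcsk6 (0.845) and Arhgef19 (0.839), and Fabp5 like Shroom3 (0.84), Daam2 (0.817) and Ckap5 (0.802). Among the members themselves, Fads1 and Fads2 correlated at 0.825, Fads2 and Fabp7 at 0.818, and Scd2 and Fads2 at 0.285.

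Changes were tested with edgeR's quasi-likelihood test on counts summed per library and class, and a gene was called at a Benjamini-Hochberg adjusted p under 0.05 over all genes of a class and contrast. The filter on low counts passed 66 of the 80 pairs of member and class. All 10 members passed in astrocytes and CA pyramidal neurons, and only Acaca, Elovl5, Fads1 and Scd2 passed in microglia. For Tau+ minus Tau- over both Ch25h genotypes, 2 of the 66 pairs were called, Fabp5 lower in astrocytes and Acaca higher in microglia. Over all genes and the 8 classes 1.22% were called. DESeq2 also called 2 pairs, where it called 1.53% of all genes, and 16 pairs had an unadjusted p under 0.05, where 10.3% of all genes did. In Ch25h+/+ alone 1 pair was called (Fabp5 in astrocytes), where the background over the 8 classes was 0.266%. DESeq2 called 2 pairs there, against 0.465% of all genes, and 9 pairs had an unadjusted p under 0.05, against 6.92%. In the libraries labelled Ch25h-/- edgeR called 0 pairs, against a background of 0.168%. At an unadjusted p under 0.05 there were 7 pairs, where 8.06% of all genes passed, and DESeq2 called 1 pair, where it called 0.583% of all genes.

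**Figure D2:**
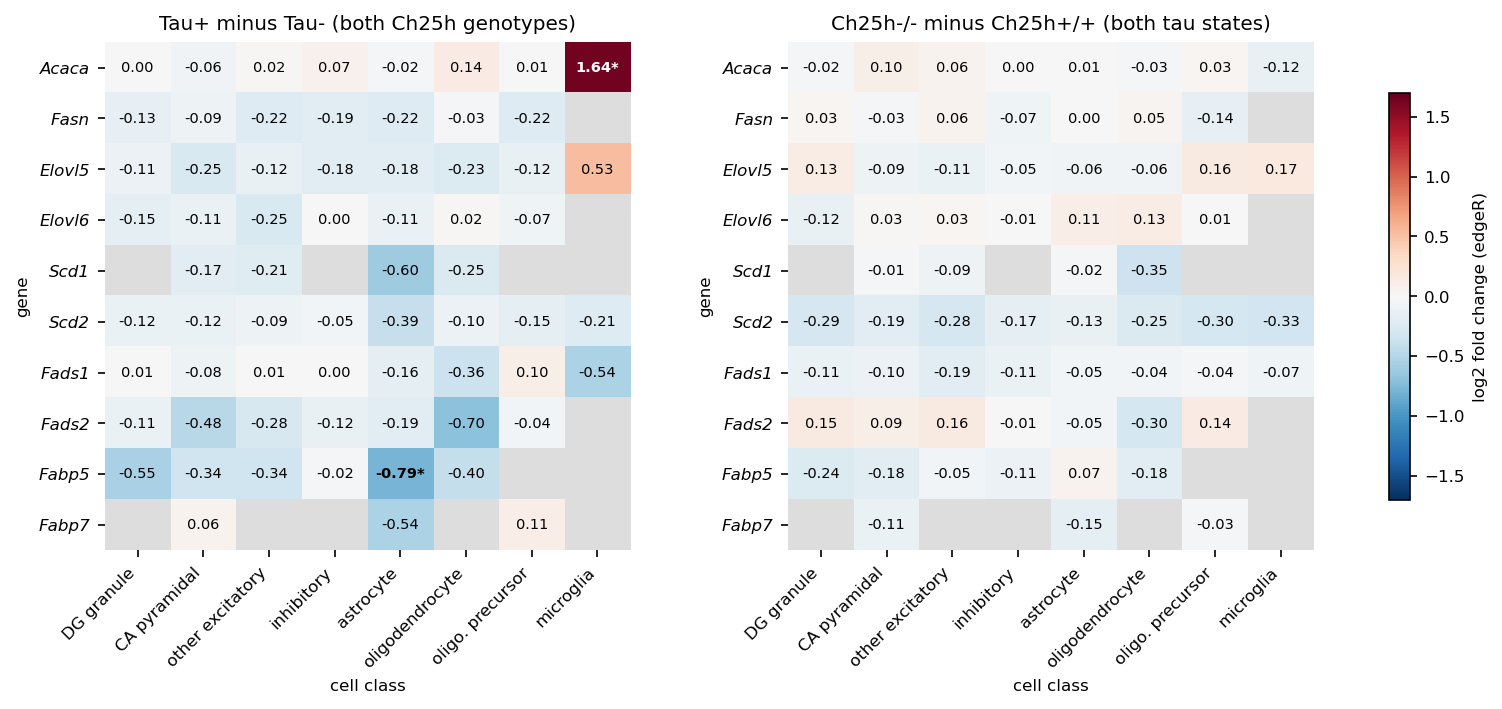
Log2 fold change (edgeR) of each gene (rows) in each tested class (columns), for Tau+ minus Tau- on the left and Ch25h-/- minus Ch25h+/+ on the right. Stars mark the 2 called pairs, -0.79 for Fabp5 in astrocytes and 1.64 for Acaca in microglia, and grey cells did not pass the filter on low counts. Scd2 is below 0 in all 8 classes on the right.

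Fabp5 was lower with tau in astrocytes. The 4 Ch25h+/+ Tau- libraries read 32.4, 44.4, 83.4 and 66.0 CPM in the order of their replicate numbers, and the 4 Ch25h+/+ Tau+ libraries 26.6, 29.5, 30.1 and 27.9. Every Tau+ library of this genotype lay below every Tau- library. How many of all astrocyte genes did so was not counted. Those labelled Ch25h-/- Tau- read 43.3, 35.9, 55.5 and 60.8 CPM, and those labelled Ch25h-/- Tau+ 38.6, 29.5, 40.7 and 32.8, which overlap.

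The log2 change of Fabp5 in Ch25h+/+ was -1.08 (SE 0.23, edgeR adjusted p = 0.0338), where 0.609% of astrocyte genes were called. Over both Ch25h genotypes it was -0.79 (SE 0.16, edgeR adjusted p = 0.00956), where 3.33% were called. Under the Ch25h-/- labels it was -0.51 (SE 0.23, edgeR adjusted p = 0.574), where 0.0468% were called, and the difference between the tau effects was 0.57 (SE 0.32, edgeR adjusted p = 1). The 2 sides of the library split differed in size. Replicates 3 and 4 alone gave -1.04 over both genotypes (edgeR adjusted p = 0.012), and replicates 1 and 2 alone -0.39 (edgeR adjusted p = 0.192). The change in Ch25h+/+ was no longer called in 5 of the 16 fits that left out a library, namely Ch25h+/+ Tau+ replicates 1, 2 and 4 and Ch25h+/+ Tau- replicates 3 and 4 (edgeR adjusted p up to 0.156), nor with only the 2 groups in the fit (edgeR adjusted p = 0.0993). The change over both genotypes stayed called in 16 of 16.

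Astrocytes with a UMI of Gfap, the filament gene of reactive astrocytes, made up 31.4 to 59.5% of astrocytes in Ch25h+/+ Tau+ and 18.5 to 22.5% in Ch25h+/+ Tau-. Under the Ch25h-/- labels they made up 28.5 to 45.9% in Tau+ and 19.3 to 27.6% in Tau-. Thinned to 1000 UMIs, 19.4% of astrocytes and 0.257% of inhibitory neurons held a UMI of Gfap (32.5% and 1.13% before, at median depths of 2376 and 7454 UMIs). In nuclei with Gfap the mean Fabp5 level was 24.2 ± 7.82 CPM in Ch25h+/+ Tau+ and 60.6 ± 29.5 in Ch25h+/+ Tau- (SD, n = 4). In nuclei without it the means were 33.0 ± 8.79 and 55.5 ± 21.2 CPM, so the difference had the same direction in both. The summed level of 8 astrocyte markers overlapped between these groups, with 10604 to 12180 CPM in Tau+ and 10540 to 13285 in Tau-, and all 8 were read. Summed oligodendrocyte markers, 7 of 7 read, were at 141 to 241 CPM in Tau+ and 109 to 215 in Tau-. Of the other lists, 7 fibroblast markers, all read, summed to 109 to 176 CPM in Ch25h+/+ Tau+ and 160 to 193 in Tau-, and to 149 to 163 against 167 to 204 under the Ch25h-/- labels, where they did not overlap. The 6 endothelial markers, all read, summed to 6.8 to 8.6 CPM in Ch25h+/+ Tau+ and 2.3 to 5.5 in Tau-, without overlap, and to 8.5 to 13.8 against 4.9 to 8.8 under the Ch25h-/- labels. The 8 CA pyramidal neuron markers, all read, summed to 167 to 203 CPM in Ch25h+/+ Tau+ and 132 to 167 in Tau-, where the ranges met without overlap, and to 165 to 189 against 142 to 171 under the Ch25h-/- labels. The fibroblast, endothelial and CA pyramidal lists thus each lay without overlap in a genotype. Lists of all other classes were also summed in astrocytes, and how many overlapped is not given here. The part of these lists in the Fabp5 change was not tested.

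No other member was called in astrocytes. All 10 members had a negative log2 change with tau over both genotypes in astrocytes, with a median of -0.21. Of the 12810 genes tested 50.4% were negative, with a median of -0.00. The members were chosen with earlier results of these data known and come from the same libraries, so this count is described and not tested. In replicates 3 and 4 alone 9 of the 10 were negative. In nuclei without Gfap the direction was mixed. Under the Ch25h-/- labels the mean CPM of Scd1, Acaca, Elovl5 and Fads1 was higher in Tau+ there, and that of the others lower. For Fads1 it was 101 ± 12.1 against 91.7 ± 2.71 CPM (SD, n = 4). In Ch25h+/+ only Fasn was higher in such nuclei, 24.1 ± 8.39 against 22.8 ± 4.14 CPM. In nuclei with Gfap, Acaca was higher with tau in Ch25h+/+, 260 ± 25.2 against 234 ± 27.2 CPM. All other means in nuclei with Gfap were lower with tau, under both Ch25h labels. Over all 16 libraries Acaca was at -0.02 (SE 0.07) on the TMM scale, and its mean CPM, which is not scaled by TMM, was the other way round, 254 in Tau+ and 251 in Tau-. Fabp7 read a median of 25.1 CPM (17.5 to 29.2) in the 8 Tau+ libraries and of 33.1 CPM (20.7 to 59.4) in the 8 Tau-, a log2 change of -0.54 (SE 0.18, edgeR adjusted p = 0.124), called only without Ch25h-/- Tau- replicate 3 among the fits that left out a library (edgeR adjusted p = 0.0484). Fabp7 read more in nuclei with Gfap than without, 36.4 ± 15.5 against 24.8 ± 9.84 CPM. Scd1 had a change of -0.60 (SE 0.25, edgeR adjusted p = 0.235).

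Scd2 in astrocytes depended on how the library split was treated. Its Ch25h+/+ Tau+ libraries read 240, 354, 372 and 481 CPM and its Ch25h+/+ Tau- libraries 368, 414, 597 and 564. On each side of the split both Tau+ values lay below both Tau- values. The share of all astrocyte genes with this pattern was not counted. Under the Ch25h-/- labels Tau+ read 318, 250, 434 and 383 CPM and Tau- 389, 313, 464 and 508, where replicate 1 of Tau+ lay above replicate 2 of Tau-. The change over both genotypes was -0.39 (SE 0.17, edgeR adjusted p = 0.266) without the split in the fit, and -0.39 (SE 0.08, edgeR adjusted p = 0.00547) with it as a block, where 5.3% of astrocyte genes were called. The sides used as the block were found from these same data.

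**Figure D3:**
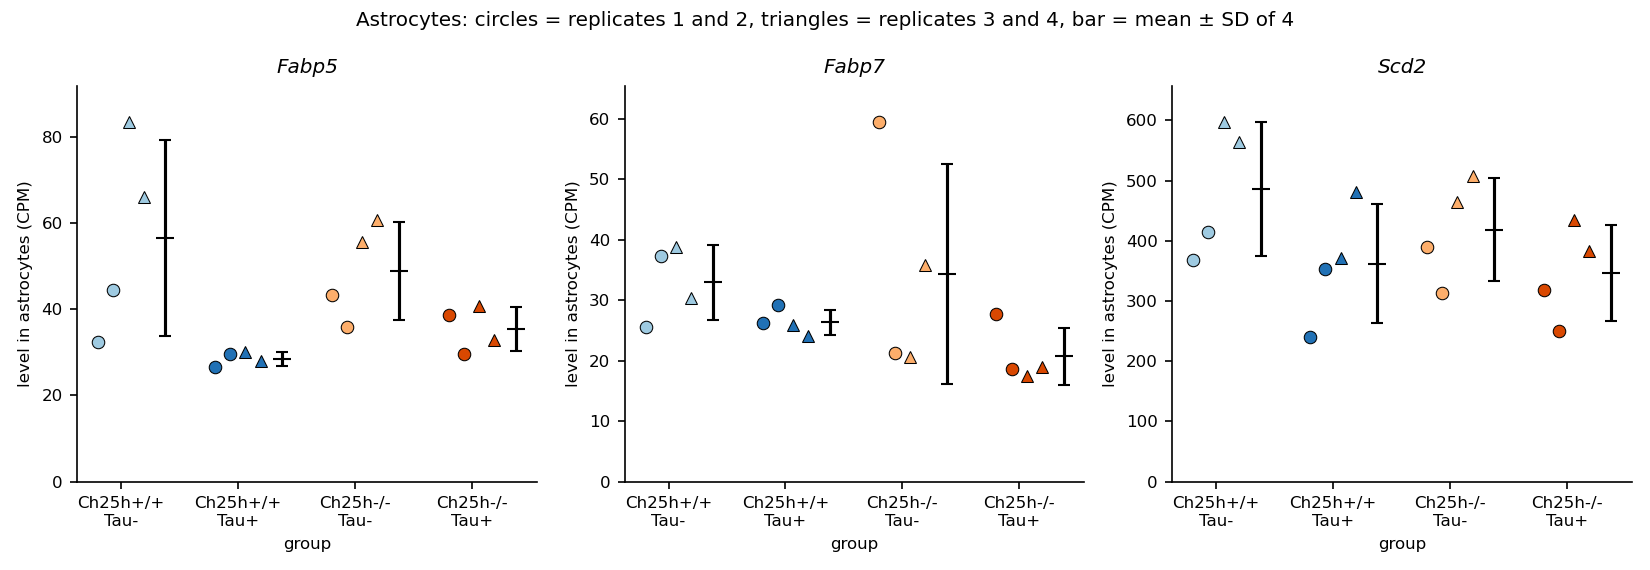
Levels of Fabp5, Fabp7 and Scd2 in astrocytes (CPM, axes from 0) by group. Circles are replicates 1 and 2, triangles replicates 3 and 4, and bars the mean ± SD of 4 libraries. Fabp5 reads 26.6 to 30.1 CPM in Ch25h+/+ Tau+ and 32.4 to 83.4 in Ch25h+/+ Tau-, while the groups of Fabp7 and Scd2 overlap. How many of all astrocyte genes separate in this way was not counted.

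Acaca, the gene of the carboxylase that commits carbon to fatty acid synthesis, was higher with tau in microglia. The Ch25h+/+ Tau+ libraries read 250, 123, 30.7 and 171 CPM, and the Ch25h+/+ Tau- libraries 45.3, 52.2, 42.5 and 37.3. Those labelled Ch25h-/- Tau+ read 209, 93.0, 59.2 and 161 CPM, and those labelled Ch25h-/- Tau- 39.0, 34.4, 68.6 and 41.0. Of the 8 Tau+ libraries 6 lay above the highest Tau- library, and replicate 3 of both Tau+ groups did not. The share of all microglial genes with this pattern is not given here.

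The log2 change of Acaca over both genotypes was 1.64 (SE 0.38, edgeR adjusted p = 0.0172), on 897 UMIs in Tau+ and 133 in Tau-. In that comparison 9.1% of the 8446 genes tested in microglia were called. It was 1.71 (SE 0.55, edgeR adjusted p = 0.134) in Ch25h+/+ and 1.56 (SE 0.54, edgeR adjusted p = 0.188) under the Ch25h-/- labels, where 2.19% and 1.43% of genes were called. Neither was called by edgeR, while DESeq2 called both (adjusted p = 0.0147 and 0.0332). The difference between the tau effects was -0.15 (SE 0.80, edgeR adjusted p = 1). The call over both genotypes held in 16 of 16 fits without a library, with log2 changes of 1.45 to 1.77. Replicates 1 and 2 alone gave 1.95 (edgeR adjusted p = 0.071) and replicates 3 and 4 alone 1.25 (edgeR adjusted p = 0.633).

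Acaca was also read in microglia with and without activation transcripts. Nuclei were split by a UMI of any of 9 genes of activated microglia (Apoe, Axl, Itgax, Lpl, Cst7, Spp1, Lilrb4a, Csf1, Cd9). Such a UMI does not by itself mark an activated nucleus: free RNA can make up 25.0% of the Apoe level in microglia and 5.32% or less of each other gene, and nuclei with a UMI were deeper (median 1562 against 1264 UMIs). Thinned to 1000 UMIs, 58.0% of microglia and 7.18% of inhibitory neurons held one (65.7% and 35.02% before, at median depths of 1449 and 7454 UMIs). Nuclei with one read 103 ± 77.0 CPM of Acaca and nuclei without 46.3 ± 20.4, over 16 libraries. Within nuclei with such a transcript, Ch25h+/+ Tau+ read 153 ± 99.7 CPM and Ch25h+/+ Tau- 57.8 ± 8.44, and Ch25h-/- Tau+ 153 ± 74.9 against 47.5 ± 23.3 in Ch25h-/- Tau- (SD, n = 4). Within nuclei without one, Ch25h+/+ Tau+ read 53.7 ± 15.4 CPM and Ch25h+/+ Tau- 30.8 ± 18.2, and Ch25h-/- Tau+ 57.4 ± 28.8 against 43.4 ± 10.4 in Ch25h-/- Tau-. The Tau+ mean was thus the higher in both kinds of nuclei and both genotypes, but the ranges overlapped in each case. In nuclei without a transcript these 4 means rest on 22, 21, 41 and 36 UMIs, in the order given. Their libraries ran from 31.4 to 66.7 against 14.6 to 53.4 CPM in Ch25h+/+. Under the Ch25h-/- labels they ran from 31.5 to 91.1 against 32.7 to 57.3. Nuclei with such a transcript made up 90.05, 86.3, 53.8 and 88.4% of microglia in Ch25h+/+ Tau+ and 34.6 to 60.9% in Ch25h+/+ Tau-, so replicate 3 was the lowest of its group in both measures. In Ch25h-/- Tau+ the share was 62.1 to 79.5%, again lowest in replicate 3, and in Ch25h-/- Tau- 42.9 to 52.4%. After thinning, the share ran from 43.4 to 84.2% in the Tau+ and 32.1 to 50.4% in the Tau- libraries labelled Ch25h+/+, which overlapped, and from 52.3 to 69.2% and 27.9 to 38.4% in those labelled Ch25h-/-, which did not. The part of this share in the change was not tested.

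**Figure D4:**
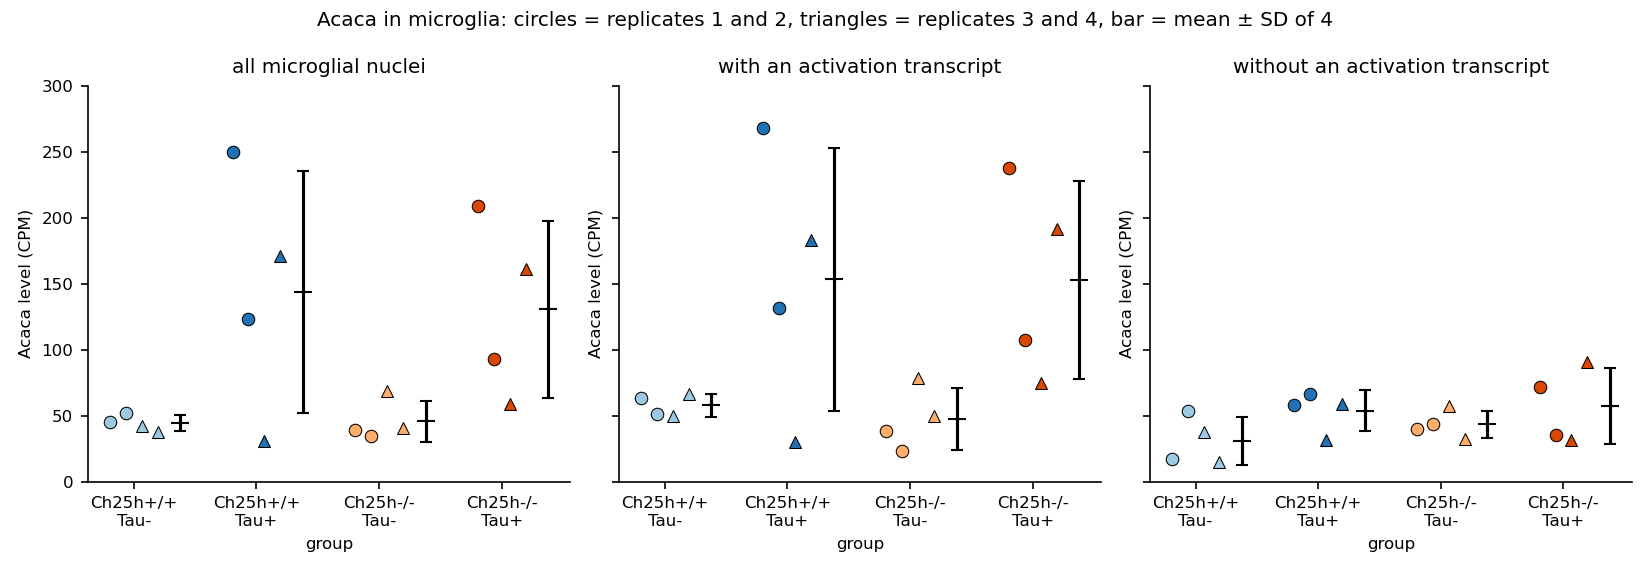
Acaca level in microglia (CPM, shared axis from 0) by group, in all microglial nuclei, in those with a UMI of an activation transcript and in those without. Circles are replicates 1 and 2, triangles replicates 3 and 4, and bars the mean ± SD of 4 libraries. All values above 100 CPM belong to Tau+ libraries in the panels of all nuclei and of nuclei with a transcript.

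Oligodendrocytes have the highest Acaca level, so their 7 markers were summed in microglia. They read 248 to 420 CPM in Ch25h+/+ Tau+ and 257 to 404 in Ch25h+/+ Tau-, and 242 to 385 in Ch25h-/- Tau+ against 111 to 271 in Ch25h-/- Tau-, with none of the 7 at 0. The 8 microglial markers summed to 7127 to 10191 CPM in Ch25h+/+ Tau+ and 9429 to 11224 in Ch25h+/+ Tau-, and to 7571 to 10280 in Ch25h-/- Tau+ and 9048 to 11373 in Ch25h-/- Tau-. Markers of border-associated macrophages, none of the 6 at 0, summed to 21.2 to 55.8 CPM in Ch25h+/+ Tau+ and 4.5 to 19.6 in Ch25h+/+ Tau-, without overlap, and to 3.3 to 33.8 against 0 to 7.3 under the Ch25h-/- labels. The 8 astrocyte markers, all read, summed to 351 to 415 CPM in Ch25h+/+ Tau+ and 419 to 659 in Ch25h+/+ Tau-, again without overlap, and to 361 to 470 against 476 to 630 under the Ch25h-/- labels. The 8 inhibitory neuron markers, all read, summed to 41.8 to 61.0 CPM in Ch25h+/+ Tau+ and 68.0 to 154 in Ch25h+/+ Tau-, without overlap, and to 48.0 to 72.5 against 49.6 to 99.6 under the Ch25h-/- labels. The last 3 lists thus lay without overlap in Ch25h+/+. Lists of all other classes were also summed in microglia, and how many overlapped is not given here. The part of these lists in the Acaca change was not tested. Acaca (chromosome 11, 84129672 to 84401651, GRCm38, plus strand) contains Gm11437 on the opposite strand, with 14391 UMIs over all nuclei against 131449 for Acaca. Whether counting used the strand is not stated. Gm11437 was not among the genes tested in microglia, and it was not called for tau in any other tested class. Gm5182, whose transcript is 97.3% identical to Acaca over 6109 bases, is not among the genes counted. Neither is Gm6166, 95.8% identical to Fabp5 over 377 bases.

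The other members tested in microglia were not called. Elovl5 read 25.3 ± 7.01 CPM in Tau+ and 18.2 ± 10.3 in Tau- (SD, n = 8), a log2 change of 0.53 (SE 0.27, edgeR adjusted p = 0.265). It was called on replicates 1 and 2 alone (1.13, edgeR adjusted p = 0.0238), and replicates 3 and 4 alone gave -0.18. Fads1 went the other way, 25.7 ± 6.03 against 37.0 ± 12.6 CPM, a log2 change of -0.54 (SE 0.21, edgeR adjusted p = 0.127). Scd2 had a log2 change of -0.21 (SE 0.14, edgeR adjusted p = 0.440).

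In neurons and in the oligodendrocyte lineage no member was called for tau. Fads2 in CA pyramidal neurons read 6.12 ± 1.45 CPM in Tau+ and 8.54 ± 1.06 in Tau- (SD, n = 8), a log2 change of -0.48 (SE 0.13, edgeR adjusted p = 0.213). Across the 8 classes 53 of the 66 pairs were negative, with a median of -0.12, against 50.01% of all genes tested and a median of -0.00. The pairs are not independent, since they repeat 10 genes in classes of the same libraries, and free RNA can make up part of a level. The list was also drawn up with earlier results of these data known, so the count is described and not tested. With relative-log-expression scaling in place of TMM 52 were negative, and in replicates 3 and 4 alone 46 of 66. Scd2, Fasn, Fads2 and Fabp5 were negative in every class where they were tested, under both scalings, as was Scd1. These counts did not hold in every setting. Replicates 1 and 2 alone gave 4 of 7 negative for Fasn, 4 of 7 for Fabp5, 6 of 7 for Fads2 and 4 of 5 for Scd1, and replicates 3 and 4 alone gave 5 of 8 for Scd2 and 3 of 4 for Scd1. Without the filter Fasn, Fads2 and Fabp5 were negative in 7 of 8 and Scd1 in 6 of 8. In microglia Fabp5 and Fads2 did not pass the filter, and their mean levels were higher with tau. Fabp5 read 13.1 ± 7.42 CPM in Tau+ (82 UMIs) and 6.50 ± 5.08 in Tau- (19 UMIs) there (SD, n = 8). Fads2 read 6.86 ± 1.64 CPM (41 UMIs) and 5.71 ± 3.61 (18 UMIs). Scd1 went the other way in microglia, 1.02 ± 1.44 against 1.17 ± 1.65 CPM, on 5 and 4 UMIs.

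Between the Ch25h labels no member was called by edgeR. The counts were 0 of 66 pairs in Tau+ (0 at an unadjusted p under 0.05), 0 in Tau- (4) and 0 over both tau states (6), and DESeq2 also called 0 in each. Of all genes 3.23%, 3.59% and 2.8% passed the unadjusted threshold in these comparisons. Few genes were called at all: 0.00664% in Tau+, 0.00285% in Tau- and 0.0104% over both by edgeR, and 0.0171%, 0.00854% and 0.0332% by DESeq2. The difference between the tau effects gave 0 calls among members, with 0 at an unadjusted p under 0.05 and 0 by DESeq2. Of all genes 0% were called by edgeR, 0.0019% by DESeq2, and 4.13% passed the unadjusted threshold.

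Scd2 had the same direction in every class under the Ch25h-/- labels. In oligodendrocytes the libraries labelled Ch25h-/- read 667, 667, 1109 and 1078 CPM in Tau- and 723, 667, 943 and 1025 in Tau+. The Ch25h+/+ libraries read 922, 801, 1406 and 1251 CPM in Tau- and 708, 878, 1117 and 1184 in Tau+. Within Tau- the libraries labelled Ch25h-/- lay below the others on both sides of the library split, as they did for 3.43% of the 11947 genes tested in oligodendrocytes, and within Tau+ they overlapped among replicates 1 and 2.

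The log2 change of Scd2 in oligodendrocytes was -0.25 (SE 0.18, edgeR adjusted p = 1), and -0.25 (SE 0.06, edgeR adjusted p = 0.262) with the split as a block. In the 8 classes it ran from -0.13 in astrocytes to -0.33 in microglia, with 8 of 8 negative. The sizes rest on single libraries in 4 classes. In astrocytes 7 of the 16 fits that left out a library moved the value by over 1.5 times: it was -0.20 without Ch25h+/+ Tau+ replicate 1 or Ch25h-/- Tau+ replicate 3, and between -0.08 and -0.04 without Ch25h+/+ Tau+ replicate 4, Ch25h+/+ Tau- replicate 3 or 4, Ch25h-/- Tau+ replicate 2 or Ch25h-/- Tau- replicate 2. Without Ch25h+/+ Tau- replicate 3 it was -0.18 in DG granule neurons and -0.13 in CA pyramidal neurons. Without Ch25h-/- Tau+ replicate 2 it was -0.09 in inhibitory neurons and -0.12 in CA pyramidal neurons. All 8 values were also negative with relative-log-expression scaling, in DESeq2, in replicates 1 and 2 alone and in replicates 3 and 4 alone. The 8 values are not independent, since the classes come from the same libraries and Scd2 is abundant in free RNA. In all 8 classes the levels of the genotypes overlapped and no value was called. Scd2 (chromosome 19, 44293674 to 44306864, plus strand) and Scd1 (44394455 to 44407879, minus strand) lie 9.82 and 9.92 Mb from Ch25h on the same chromosome. Scd1 was negative in 4 of 4 classes tested, down to -0.35 in oligodendrocytes, and Fads1, 24.3 Mb from Ch25h, in 8 of 8 at -0.04 to -0.19. These counts changed with the setting: Fads1 was negative in 7 of 8 in replicates 1 and 2 alone and 6 of 8 in replicates 3 and 4 alone, and Scd1 in 4 of 5 in replicates 1 and 2 alone and 7 of 8 without the filter. Fads2, close to Fads1, was negative in 3 of 7. On another chromosome, Fabp7 was negative in 3 of 3, with 2 of 3 and 1 of 3 on the sides of the split. The part of chromosomal position in these directions was not tested. Over all members 44 of 66 pairs, again not independent and from a list chosen with earlier results known, were negative, against 50.69% of all genes. This total was 36 of 68 in replicates 1 and 2 alone, with a median of -0.01, and 43 of 66 in replicates 3 and 4 alone.

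The levels of the stearoyl-CoA desaturases in oligodendrocytes also separated by the library split. Scd2 read 754 ± 101 CPM in the 8 libraries of replicates 1 and 2 (667 to 922) and 1139 ± 143 in the 8 of replicates 3 and 4 (943 to 1406). Scd1 read 11.5 ± 2.70 CPM against 23.9 ± 6.42. For these 2 of the 9 members tested in oligodendrocytes the sides did not overlap. Of all genes tested there 3.1% did not overlap in either direction, and 0.343% were higher in replicates 3 and 4 without overlap. The sides were found from the data, so their difference is described and not tested.

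**Figure D5:**
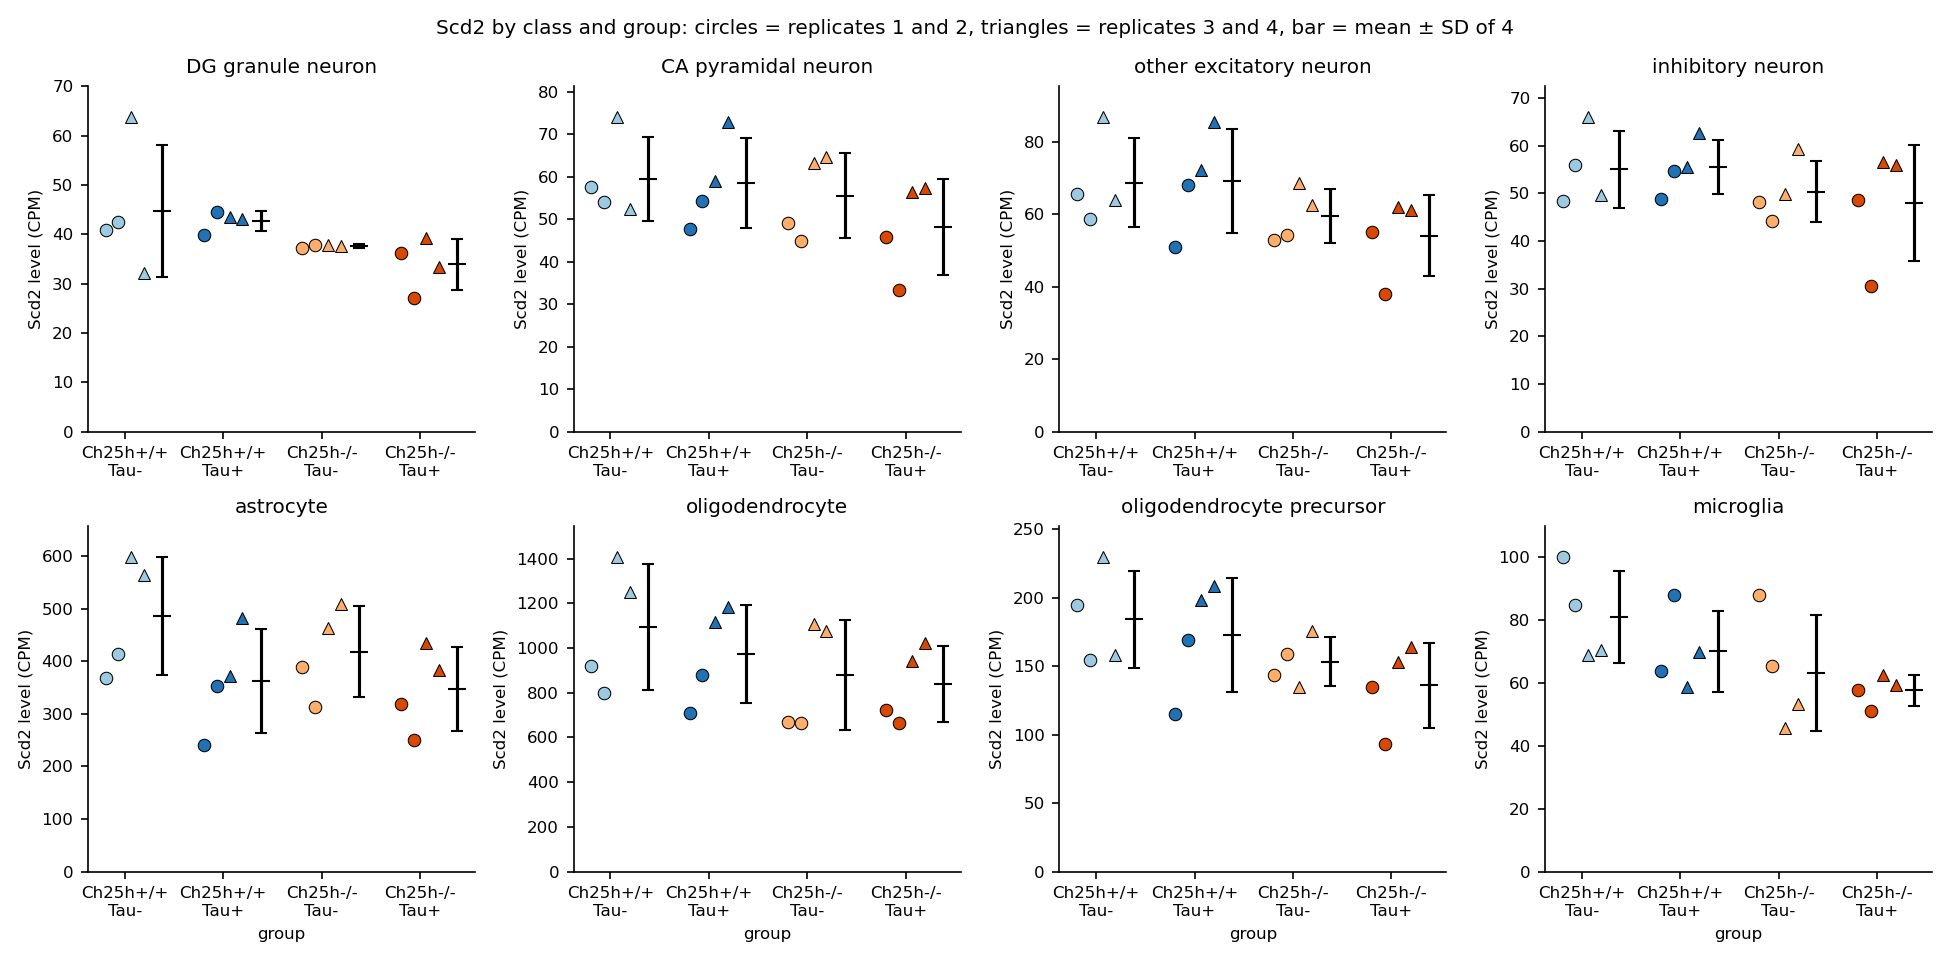
Scd2 level (CPM, axes from 0 that differ between panels) by group in each tested class. Circles are replicates 1 and 2, triangles replicates 3 and 4, and bars the mean ± SD of 4 libraries. In oligodendrocytes all triangles (943 to 1406 CPM) lie above all circles (667 to 922).

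A list of 52 other genes of the pathway was read beside the members: 8 of synthesis, 9 of elongation, 5 desaturases, 11 that control the pathway, 10 of activation, uptake and binding, and 9 of fatty acid oxidation. Of 330 pairs of gene and class tested for tau over both genotypes, 1 was called higher and 0 lower, against 1.22% of all genes. The called gene was Hsd17b12, which encodes a reductase of elongation, in microglia. It read 70.7 ± 6.28 CPM in Ch25h+/+ Tau+ and 42.7 ± 15.5 in Ch25h+/+ Tau-, and 69.7 ± 13.5 against 49.2 ± 11.4 under the Ch25h-/- labels. Its log2 change was 0.56 (SE 0.17, edgeR adjusted p = 0.0307), and it stayed called in 7 of the 16 fits without a library. The call was lost without replicates 1, 2 or 4 of Ch25h+/+ Tau+, and without replicates 1 or 4 of each other group (edgeR adjusted p up to 0.0718). No gene of the list was called between the Ch25h labels or for the difference between the tau effects.

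The levels of the list filled in the pathway by class. Of the 52 genes, 20 were highest in astrocytes, 13 in microglia, 8 in oligodendrocytes, 8 in inhibitory neurons and 3 in other classes. Some of these placements were near ties or low. Cpt2 read 9.98 ± 3.11 CPM in microglia and 9.97 ± 2.86 in astrocytes. Me1 read 61.6 ± 5.95 CPM in CA pyramidal neurons and 61.0 ± 8.12 in astrocytes, and Cd36 3.94 ± 5.93 in microglia. In astrocytes Acsl3, which activates fatty acids with CoA, read 820 ± 161 CPM, Slc27a1, a fatty acid transporter, 358 ± 62.5, and Srebf1, the SREBP gene of fatty acid synthesis, 57.3 ± 11.5. In oligodendrocytes the elongase gene Elovl7 read 284 ± 41.4 CPM and the desaturase gene Scd3 93.1 ± 12.4. Microglia read 242 ± 30.2 CPM of Mlxipl, which encodes the carbohydrate response factor of lipogenesis, against 18.8 in the next class.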

How the data were processed

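Single-nucleus RNA of the hippocampus was measured in 16 libraries (10x Genomics 3' version 3.1 chemistry, per the labels' protocols). The deposited matrices hold UMI counts per gene and barcode, unfiltered. Per the file headers the software was Cell Ranger 4, while the submitters' processing notes name Cell Ranger 3.1.0 and mm10. The annotation, the handling of intronic reads and strand are not given in the sources used here.

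Barcodes with at least 500 UMIs, at least 300 genes and at most 5% mitochondrial UMIs were kept (147873), and the 0.8% per 1000 nuclei scoring highest in Scrublet were removed as doublets (11045). Leiden clustering (scanpy 1.11.5, 3000 variable genes without members and pathway genes, 50 components, 20 neighbours, resolution 1) gave 39 clusters, of which 12 stayed unnamed. A class name needed 3 fixed markers at 2-fold.

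Counts were summed per library and class and tested with edgeR 4.0.16 (TMM, filterByExpr, robust quasi-likelihood fit, 1 mean per group, two-sided), which was tested on simulated data. Library depth was 51270831 to 84870650 UMIs. Alternatives were DESeq2 1.42.0, other scaling, no filter, deeper nuclei, doublets kept, the library split, the 2 groups alone and each library left out. Free RNA was taken from barcodes under 100 UMIs and scaled by the foreign marker list with the lowest ratio in each class. Coordinates are GENCODE M21 (GRCm38), which held 32158 of 32285 gene identifiers. No library was a copy of another (chi-square per degree of freedom 7.83 to 58.2 over 24 pairs within groups). Genes named by rule are all members, called pathway genes, the 3 genes most like each member with at least 10 CPM in a class, and Ch25h. Other pathway genes, such as Acsl3, Slc27a1, Srebf1, Elovl7, Scd3 and Mlxipl, are named outside this rule as examples of levels by class. Gfap, the activation genes, Gm11437, Gm5182 and Gm6166 are named where they are described. One of the genes most like a member is not reported here. The members and lists were chosen with earlier results of these data known.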

Additional observations from a re-analysis of the deposited data

Results flagged for a closer look

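In 264 groups of 4 libraries (66 tested pairs of member and class, 4 groups each), the level of 9 groups held a library far from the other 3 by Dixon's test, where chance alone gives about 1 in 20. In astrocytes, replicate 1 of Ch25h-/- Tau+ read 107 CPM of Elovl6 (others 70.8 to 74.9) and 27.6 CPM of Fabp7 (others 17.5 to 19.0). In oligodendrocyte precursors, replicate 3 of Ch25h-/- Tau- read 188 CPM of Elovl6 (others 159 to 162).

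The other 6 lay in neurons. In CA pyramidal neurons, replicate 2 of Ch25h+/+ Tau- read 75.3 CPM of Elovl6 (others 87.1 to 88.8) and replicate 2 of Ch25h-/- Tau+ 13.8 CPM of Fads1 (others 18.2 to 18.3). In inhibitory neurons, replicate 2 of Ch25h+/+ Tau- read 22.2 CPM of Fads1 (others 19.6 to 19.9) and replicate 4 of Ch25h+/+ Tau+ 4.32 CPM of Fads2 (others 4.60 to 4.66). Replicate 2 of Ch25h+/+ Tau+ read 17.4 CPM of Fads2 in DG granule neurons (others 14.9 to 15.3), and replicate 4 of that group 1.63 CPM of Scd1 in other excitatory neurons (others 0.890 to 1.02).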

How the results depend on the processing

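Over 462 member results and 11340 alternative values, 11321 kept their side of the threshold, 10 lost a call, 9 gained one and 0 called values changed sign. Another 726 values that were not called changed sign. Most of the 462 results were not called in the main fit, so the 11321 mostly count values that stayed uncalled. The 10 lost calls all fall on the few results that were called. For tau in Ch25h+/+ the members called went from 1 (0.266% of all genes called) to 2 with DESeq2 (0.465%), 2 with the library split as a block (0.689%) and 0 with only the 2 groups fitted (0.127%). Under the Ch25h-/- labels DESeq2 called 1 (0.583%). Over both genotypes replicates 1 and 2 alone called 1 (Elovl5 in microglia) and replicates 3 and 4 alone 1 (Fabp5 in astrocytes), in place of 2. In these fits 1.56% and 0.226% of all genes were called, with 9.74% of microglial genes in the first and 0.404% of astrocyte genes in the second. Leaving out 1 library gave 0 to 2, 0 to 1 and 2 to 3 members called in these 3 comparisons, and 0 to 0 for Ch25h and for the difference of the tau effects.

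Genes called in astrocytes for tau in Ch25h+/+ went from 78 to 192 with DESeq2, 131 without a filter, 265 with the split as a block, 229 in replicates 1 and 2, 14 in replicates 3 and 4 and 26 with the 2 groups alone (9 to 194 without 1 library). Under the Ch25h-/- labels 6 became 111 with DESeq2, 34 without a filter, 28 with the block, 73 in replicates 1 and 2, 1 in replicates 3 and 4 and 18 with the 2 groups alone (0 to 122 without 1 library). Over both genotypes they went from 426 to 679 with the block and 52 in replicates 3 and 4 (275 to 561 without 1 library). In microglia 769 became 2 in replicates 3 and 4 (548 to 1032 without 1 library). The cause was not tested. Without Ch25h+/+ Tau+ replicate 3, Acaca in microglia was called in Ch25h+/+ (1.97, edgeR adjusted p = 0.00974). Of 240 alternative levels 1 moved by over 1 SD, Fads2 in inhibitory neurons with doublets kept (5.87 CPM). No paired analysis was possible because the labels carry no replicate numbers, and those used here follow the order of deposit. In microglia, with 166 to 603 nuclei per library, 6 of the 10 members did not pass the filter on low counts and were not tested.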
